A study of Mus musculus with 6 samples.

Results

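The 32 genes described here encode the enzymes, transporters and regulators that carry glucose to lactate by glycolysis, together with the enzymes of the pentose phosphate pathway. They were taken from a list of gene symbols of these pathways, and all 32 were found among the 17909 genes of the table. The table came from 6 bulk RNA-seq libraries, 1 per group, of cells sorted out of C57BL/6xFVB mouse embryos, and the question asked of it was which isoform held the highest transcript level at each step in each library. All 6 groups carried Csf1r-iCre, in which a Cre recombinase is made under the Csf1r promoter. A single library was labelled as macrophages of the E11.5 fetal liver. The other 5 were erythro-myeloid progenitors (EMPs) of the E11.5 fetal liver, mast cell progenitors (MCPs) of the E11.5 fetal liver, MCPs of the limb at E11.5, MCPs of the limb at E14.5, and cells of the skin at E16.5 that the labels call MCPs in the title and mast cells in the description. The number of embryos behind each library and the surface markers of the sort were not given in the sources used here.

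Glycolysis splits glucose into pyruvate in the cytosol, and lactate dehydrogenase turns pyruvate into lactate so that the pathway can go on. Most steps can be served by several isoforms, encoded by separate genes that differ in tissue and in regulation. The pentose phosphate pathway branches off after the first glycolytic step. Its oxidative arm makes NADPH, used by phagocytes for the oxidative burst and by all cells for biosynthesis, and its non-oxidative arm links pentoses back to glycolysis.

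Values were FPKM, fragments relative to gene length and library total, which are scaled to gene length, so that genes can be compared within a library. Depth, estimated from the values, was 8950000 to 12750000 fragments per library. With 1 library per group there was no replicate error, so differences between libraries are given as values with no test. Values are given on 2 scales, the FPKM as deposited and the FPKM divided by a median-of-ratios size factor. The skin library stood apart from the rest. Its size factor was 0.526, against 1.03 to 1.24 in the other 5 libraries, and it held 5675 genes at 1 FPKM or more, against 8270 to 8754. The gene-by-gene comparison of skin cells is therefore given on both scales, and single values in skin cells are FPKM as deposited. Summed mast cell markers, led by Cpa3, stood at 66.2 FPKM in the macrophage-labelled library, and at 129 in liver EMPs, 374 in liver MCPs, 783 in limb MCPs at E11.5, 3613 in limb MCPs at E14.5 and 15640 in skin cells. Most of the skin sum was Cpa3, at 13494 FPKM, and the single markers did not all rise with the sum. Of the 9 in the table, 3 were at least 2-fold higher in the skin library than in the later limb library. Lower by that measure was 1, Gata2, listed at 0 in the skin against 141.9 FPKM in the limb. Kit stood at 239.3 FPKM in the skin against 283.9 in the later limb library. The macrophage-labelled library did not carry a macrophage pattern alone. Its macrophage markers summed to 118 FPKM, with Csf1r at 34.1, while its neutrophil markers summed to 8106 and its eosinophil markers to 10030 FPKM, with Prg2 at 5617. In the EMP library the neutrophil markers summed to 10370 FPKM, with Mpo at 8174. Of the 10 neutrophil markers, 6 were at least 2-fold higher in the macrophage-labelled library than in EMPs, and 3 were lower. Higher were Ngp, Ltf, Lcn2, Camp, S100a8 and S100a9, with Ltf at 73.2 FPKM against 1.38 in EMPs. Lower were Mpo, Prtn3 and Ctsg. Both libraries thus had a high sum, made in part of different markers. In such bulk samples fewer cells of a type and less RNA per cell cannot be told apart.

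The 32 genes together took 1.80% of all FPKM in the macrophage-labelled library. Their share was 2.11% in liver EMPs, 1.24% in liver MCPs, 1.67% in limb MCPs at E11.5, 2.05% in limb MCPs at E14.5 and 0.757% in skin cells. Highest levels were unevenly spread. As FPKM, 13 genes were highest in liver EMPs, 7 in the macrophage-labelled library, 7 in limb MCPs at E14.5, 3 in limb MCPs at E11.5, 1 in liver MCPs and 1 in skin cells. After median-of-ratios scaling 10 genes were highest in liver EMPs and 10 in the macrophage-labelled library. Of the 32 genes, 22 reached 10 FPKM in some library, and 10 stayed below it throughout, namely Pfkm, Pfkp, Pfkfb4, Aldoc, Bpgm, Eno2, Eno3, Slc16a1, Slc16a3 and Pdk1. Listed at 0 in some library were 5 genes: Hk3, Pfkp, Eno2, Ldhb and Slc16a3. A value of 0 in this table can also be a failed estimate, and counting alone would allow up to 0.118 to 0.168 FPKM for a transcript of 2 kb listed at 0 (3 fragments).

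**Figure D1:**
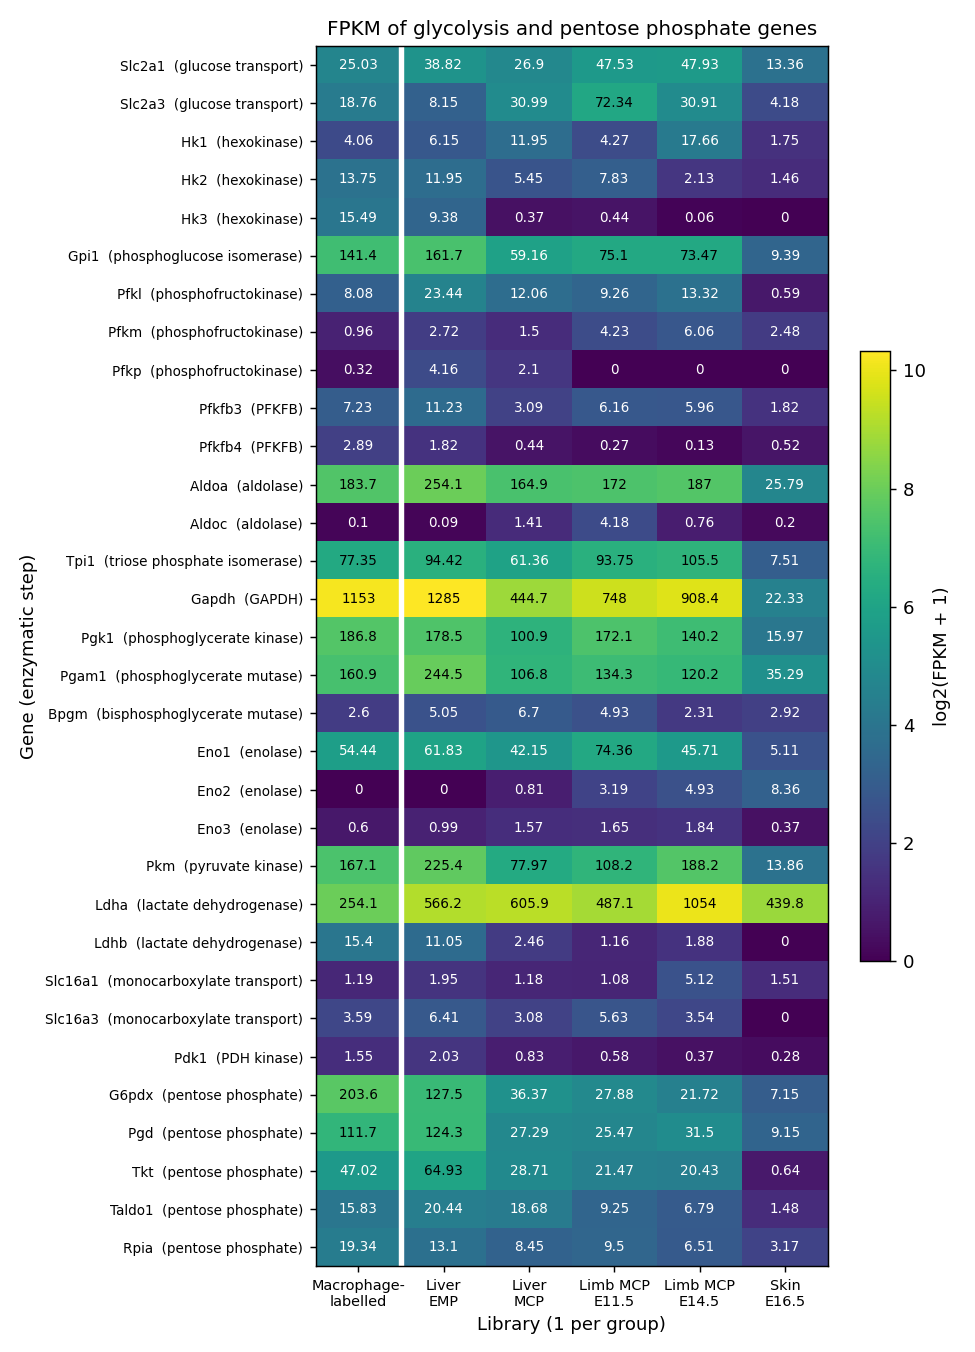
FPKM of each of the 32 genes (down the page, in pathway order) in each of the 6 libraries (across), printed in the cells and coloured by log2(FPKM + 1). Gapdh is brightest in the macrophage-labelled library (1153 FPKM) and liver EMPs (1285 FPKM), whereas Ldha is the brightest gene of the skin library (440 FPKM).

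The heat map of FPKM shows that the steps of the trunk, from Gpi1 to Ldha, held most of the transcript in every library. Near-identical gene copies limit some of these values. A match of at least 95% identity over at least 300 bases to another annotated gene was found for 10 of the 32 genes. These were Gpi1, Pfkp, Tpi1, Gapdh, Pgk1, Pgam1, Eno1, Pkm, Ldha and Ldhb, and Gapdh alone matched 77 other genes. How the fragments of such genes were shared out among the copies was not given in the sources used here, so their levels are uncertain.

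Glucose enters through 2 listed transporters, and their order changed between libraries. Slc2a1, the widespread basal transporter GLUT1, stood at 25.03 FPKM in the macrophage-labelled library, and at 38.8 in liver EMPs, 26.9 in liver MCPs, 47.5 in limb MCPs at E11.5, 47.9 in limb MCPs at E14.5 and 13.4 in skin cells. Slc2a3, the high-affinity transporter GLUT3 known best from neurons, stood at 18.8 FPKM in the macrophage-labelled library, and at 8.15 in liver EMPs, 31.0 in liver MCPs, 72.3 in limb MCPs at E11.5, 30.9 in limb MCPs at E14.5 and 4.18 in skin cells. Slc2a3 was thus the less stable of the pair. Without the skin library its highest level was 8.88 times its lowest, against 1.92 times for Slc2a1. Slc2a1 led in 4 libraries, with 57.2% of the pair's FPKM in the macrophage-labelled library, 82.6% in liver EMPs, 60.8% in limb MCPs at E14.5 and 76.2% in skin cells. Slc2a3 led in the E11.5 MCP libraries, with 53.5% in the liver, where it exceeded Slc2a1 1.15-fold (95% counting interval 1.06 to 1.25), and 60.3% in the limb, where it did so 1.52-fold (1.42 to 1.63). These intervals, exact for the estimated fragments, cover counting error only and rest on the estimated depth and the annotated transcript lengths.

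Hexokinase, which traps glucose as a phosphate, showed the widest spread of isoforms. Hk1, the broadly used form that docks on mitochondria, stood at 4.06 FPKM in the macrophage-labelled library, and at 6.15 in liver EMPs, 12.0 in liver MCPs, 4.27 in limb MCPs at E11.5, 17.7 in limb MCPs at E14.5 and 1.75 in skin cells. Hk2, the form known for its response to insulin and hypoxia, stood at 13.8 FPKM in the macrophage-labelled library, and at 12.0 in liver EMPs, 5.45 in liver MCPs, 7.83 in limb MCPs at E11.5, 2.13 in limb MCPs at E14.5 and 1.46 in skin cells. Hk3, a form typical of myeloid cells that does not dock on mitochondria, stood at 15.5 FPKM in the macrophage-labelled library and 9.38 in liver EMPs, but at 0.37 in liver MCPs, 0.44 in limb MCPs at E11.5, 0.06 in limb MCPs at E14.5 and at a listed 0 in skin cells. Each of the 3 genes therefore led somewhere. Hk3 took 46.5% of hexokinase FPKM in the macrophage-labelled library, ahead of Hk2 at 41.3% by 1.13-fold (1.0 to 1.26). Hk2 took 43.5% in liver EMPs and, among the limb libraries, 62.4% at E11.5. Hk1 took 67.2% in liver MCPs, 89.0% in limb MCPs at E14.5 and 54.5% in skin cells, where its lead over Hk2 was within counting error (1.20-fold, 0.813 to 1.74).

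Hk3 was high in the libraries with the highest summed neutrophil markers, which differed in the make-up of that sum. Neutrophil markers, of which all 10 were in the table, summed to 8106 FPKM in the macrophage-labelled library and 10370 in liver EMPs, and to 1051 in liver MCPs, 487 in limb MCPs at E11.5, 2.01 in limb MCPs at E14.5 and 8.30 in skin cells. Their part in the level of Hk3 was not tested. The promoter window of Hk3 is shown because Hk3 had the widest range of levels among the hexokinases. It runs from 250 bases before to 50 bases after the start in RefSeq (GRCm38.p6, chr13:55021336-55021635, minus strand). Capitals mark GAGGAA or its reverse complement, a core letter string of sites for the myeloid factor PU.1.

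Hk3: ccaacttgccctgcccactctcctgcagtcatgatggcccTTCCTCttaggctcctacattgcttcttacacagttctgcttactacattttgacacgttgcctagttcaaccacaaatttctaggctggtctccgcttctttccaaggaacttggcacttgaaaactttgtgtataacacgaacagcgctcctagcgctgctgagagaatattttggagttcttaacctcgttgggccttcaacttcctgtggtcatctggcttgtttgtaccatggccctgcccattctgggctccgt

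This window held 1 such match. The string occurred in 28.3% of all 32851 promoter windows of the RefSeq set and in 11 of 45 windows of the genes described here (24.4%), on either strand. RefSeq had windows for 31 of the 32 genes, and Slc2a3 was without an entry.

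At the next steps a single isomerase gene was followed by a phosphofructokinase whose leading isoform differed in skin cells. Gpi1, the isomerase that passes hexose phosphate on, ranged from 9.39 FPKM in skin cells to 162 FPKM in liver EMPs. Pfkl, the liver-type subunit of the enzyme that commits sugar to glycolysis, stood at 8.08 FPKM in the macrophage-labelled library, and at 23.4 in liver EMPs, 12.1 in liver MCPs, 9.26 in limb MCPs at E11.5, 13.3 in limb MCPs at E14.5 and 0.59 in skin cells. Pfkm, the muscle-type subunit, stood at 0.96 FPKM in the macrophage-labelled library, and at 2.72 in liver EMPs, 1.5 in liver MCPs, 4.23 in limb MCPs at E11.5, 6.06 in limb MCPs at E14.5 and 2.48 in skin cells. Pfkl led in 5 libraries, with 68.6% to 86.3% of phosphofructokinase FPKM. In skin cells Pfkm led with 80.8%, 4.20-fold above Pfkl (2.54 to 7.43, from an estimated 64 and 20 fragments). Skeletal muscle markers, 9 of 10 in the table, summed to at most 5.5 FPKM, in limb MCPs at E14.5, and to 0.02 FPKM in skin cells, where 8 of the 9 were listed at 0. Pfkp, the platelet-type subunit, stood at 0.32 FPKM in the macrophage-labelled library, 4.16 in liver EMPs and 2.10 in liver MCPs, and was listed at 0 in the limb and skin libraries. Its transcripts overlap those of Pitrm1 over 748 bases, and its values are uncertain for that reason.

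Phosphofructokinase is switched on by a sugar bisphosphate that the Pfkfb enzymes make and remove. Pfkfb3, the form with the strongest bias to making it, led in all 6 libraries with 71.4% to 97.9% of the pair. Once the other forms Pfkfb1 and Pfkfb2 are added its share was 42.9% in liver MCPs, 54.0% in the macrophage-labelled library, 61.4% in limb MCPs at E11.5 and 68.8% to 77.8% elsewhere. Its level stood at 7.23 FPKM in the macrophage-labelled library, and at 11.2 in liver EMPs, 3.09 in liver MCPs, 6.16 in limb MCPs at E11.5, 5.96 in limb MCPs at E14.5 and 1.82 in skin cells. Pfkfb4 reached 2.89 FPKM in the macrophage-labelled library and lay between 0.13 and 1.82 FPKM elsewhere.

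**Figure D2:**
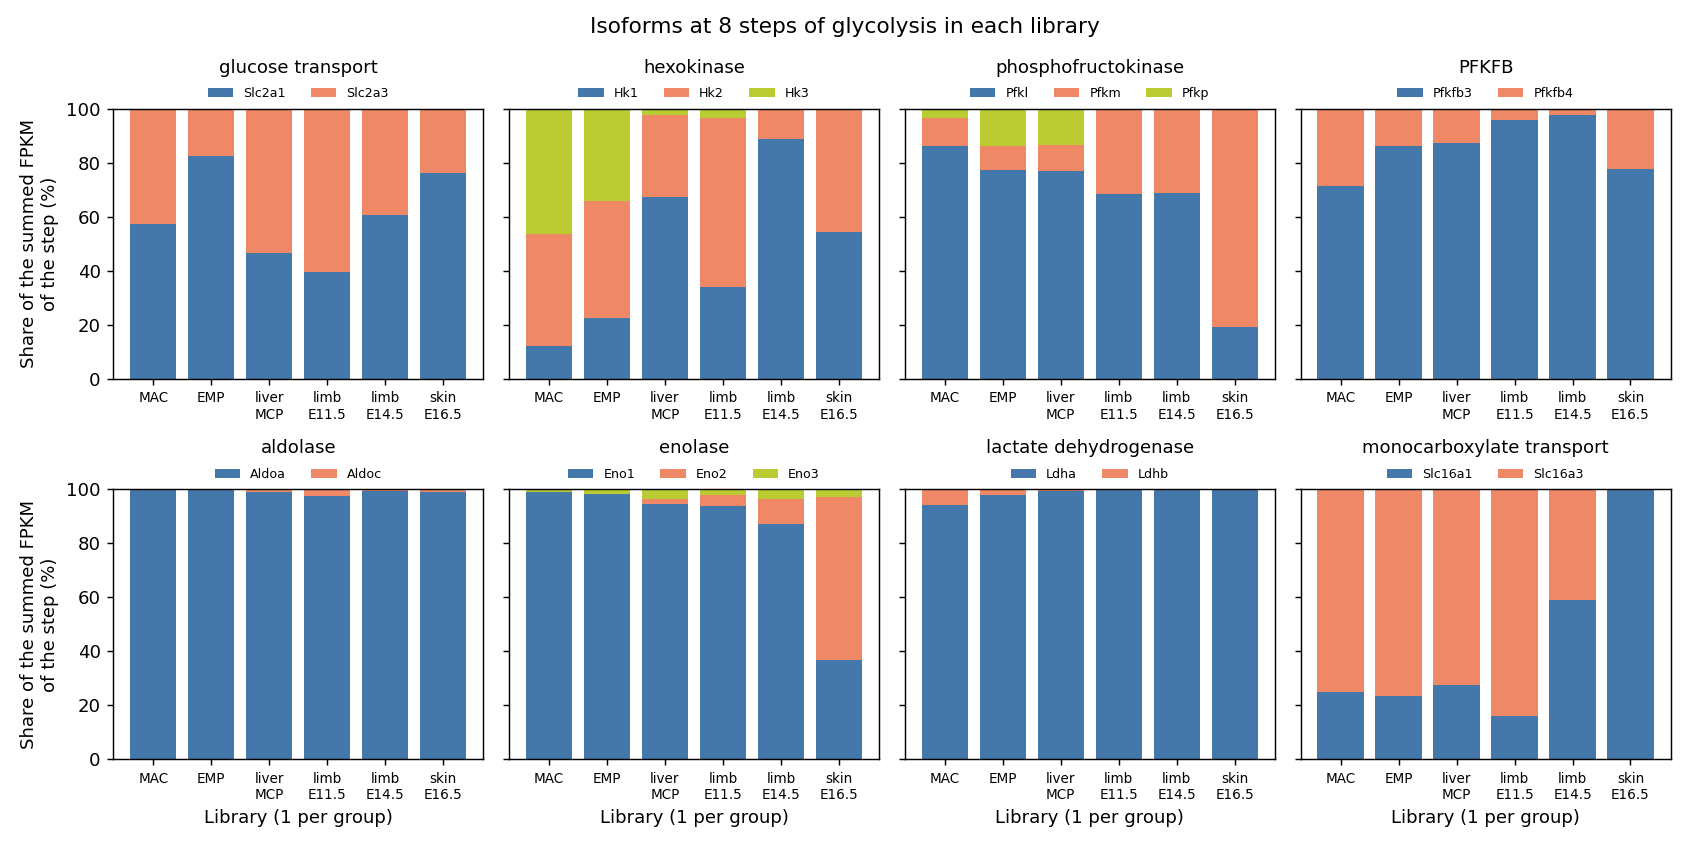
Share of the summed FPKM (%) taken by each listed isoform at 8 steps, with the 6 libraries along each horizontal axis (MAC, macrophage-labelled; EMP and MCP, liver progenitors; limb E11.5 and E14.5, limb MCPs; skin E16.5, skin cells). Colours change over at the hexokinase step between libraries, and the phosphofructokinase and enolase bars of skin cells differ from the other 5 (Pfkm 80.8%, Eno2 60.4% without Eno1b and 29.3% with it).

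The bars of isoform shares use levels within a library, so they do not depend on how libraries are scaled to each other. Aldolase, in contrast to hexokinase, was served by 1 gene. Aldoa, the muscle and general form, held at least 97.6% of aldolase FPKM in each library, at 184 FPKM in the macrophage-labelled library, and at 254 in liver EMPs, 165 in liver MCPs, 172 in limb MCPs at E11.5, 187 in limb MCPs at E14.5 and 25.8 in skin cells. Aldoc, the brain form, was highest in limb MCPs at E11.5, at 4.18 FPKM or 2.37% of the step, and stood between 0.09 and 1.41 FPKM elsewhere. Neural markers, 8 of 10 in the table, summed to 2.07 FPKM in that limb library, most of it Tubb3 at 1.68, and to 0.29 to 1.42 FPKM in the others.

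Lower glycolysis up to pyruvate holds steps with a single listed gene each. Tpi1, which interconverts the triose phosphates, stood between 61.4 and 105.5 FPKM in 5 libraries and at 7.51 FPKM in skin cells. Gapdh, the dehydrogenase that makes the first high-energy phosphate, stood at 1153 FPKM in the macrophage-labelled library, and at 1285 in liver EMPs, 445 in liver MCPs, 748 in limb MCPs at E11.5, 908 in limb MCPs at E14.5 and 22.3 in skin cells. Among 17909 genes Gapdh ranked 9 in the macrophage-labelled library, 4 in liver EMPs and 537 in skin cells. Pgk1, the first kinase to return ATP, lay between 101 and 187 FPKM outside skin cells and at 15.97 FPKM in them. Pgam1, the mutase of the next step, lay between 107 and 244 FPKM outside skin cells and at 35.3 FPKM in them. Pkm, the pyruvate kinase gene whose 2 splice forms a gene-level value cannot tell apart, stood at 167 FPKM in the macrophage-labelled library, and at 225 in liver EMPs, 78.0 in liver MCPs, 108 in limb MCPs at E11.5, 188 in limb MCPs at E14.5 and 13.9 in skin cells. Among the 5 libraries other than skin, liver MCPs held the lowest values of Gpi1, Tpi1, Gapdh, Pgk1, Pgam1 and Pkm, on both scales.

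Bpgm, which makes the bisphosphoglycerate that loosens oxygen from haemoglobin in red cells, stood at 2.60 FPKM in the macrophage-labelled library, and at 5.05 in liver EMPs, 6.70 in liver MCPs, 4.93 in limb MCPs at E11.5, 2.31 in limb MCPs at E14.5 and 2.92 in skin cells. Erythroid markers, all 10 in the table, were highest in the same library, summing to 27.5 FPKM in the macrophage-labelled library, and to 60.3 in liver EMPs, 309.7 in liver MCPs, 48.9 in limb MCPs at E11.5, 6.27 in limb MCPs at E14.5 and 1.98 in skin cells. The part of erythroid transcripts in the level of Bpgm was not tested.

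Enolase is the step where the deposited values needed most care. Eno1, the general form, stood at 54.4 FPKM in the macrophage-labelled library, and at 61.8 in liver EMPs, 42.2 in liver MCPs, 74.4 in limb MCPs at E11.5, 45.7 in limb MCPs at E14.5 and 5.11 in skin cells. Eno2, the form classically called neuron-specific, was listed at 0 in the macrophage-labelled library and in liver EMPs, and stood at 0.81 FPKM in liver MCPs, 3.19 in limb MCPs at E11.5, 4.93 in limb MCPs at E14.5 and 8.36 in skin cells. Along the 5 libraries from EMPs to skin cells each value of Eno2 exceeded the one before it, and it was the only listed gene with its highest FPKM in skin cells. Summed neural markers had another order, at 0.43 FPKM in liver EMPs, 1.42 in liver MCPs, 2.07 in limb MCPs at E11.5, 0.89 in limb MCPs at E14.5 and 0.45 in skin cells. Eno3, the muscle form, lay between 0.37 and 1.84 FPKM.

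By these values Eno2 led in skin cells with 60.4% of enolase FPKM, 1.64-fold above Eno1 (1.27 to 2.14), and Eno1 led in the other 5 libraries with 87.1% to 98.9%. Eno1 has a near-identical copy, Eno1b, listed as a gene of its own and 99.5% identical over 1736 bases. Eno1b stood at 114 FPKM in the macrophage-labelled library, and at 289 in liver EMPs, 125 in liver MCPs, 51.2 in limb MCPs at E11.5, 126 in limb MCPs at E14.5 and 14.7 in skin cells. The sum of Eno1 and Eno1b was 168 FPKM in the macrophage-labelled library, and 350.4 in liver EMPs, 167 in liver MCPs, 126 in limb MCPs at E11.5, 172 in limb MCPs at E14.5 and 19.8 in skin cells. With this sum, a choice made after the values had been seen, Eno2 held 29.3% of enolase FPKM in skin cells, and the Eno1 pair led there too. The order of the enolases in skin cells thus rested on whether Eno1b was counted, and Eno1b alone, at 14.7 FPKM, stood above Eno2 at 8.36 FPKM there. The values of Eno2 itself did not depend on how reads were divided between Eno1 and Eno1b, since Eno2 had no near-identical copy.

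The RefSeq window of Eno2 is shown because this gene alone was highest in skin cells (GRCm38.p6, chr6:124769624-124769923, minus strand). Capitals would mark ACGTG or its reverse complement CACGT, the core letters of hypoxia response elements.

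Eno2: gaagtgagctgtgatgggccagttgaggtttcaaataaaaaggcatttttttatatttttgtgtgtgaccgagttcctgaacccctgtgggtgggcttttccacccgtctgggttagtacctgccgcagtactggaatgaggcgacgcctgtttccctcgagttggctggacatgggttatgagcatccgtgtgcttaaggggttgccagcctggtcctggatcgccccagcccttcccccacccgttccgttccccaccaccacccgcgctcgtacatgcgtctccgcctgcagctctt

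No match lay in this window, which says only that these letters are not in it. Eno2 lies 40.9 kb from Tpi1, and Tpi1 347 kb from Gapdh, on chromosome 6, which carries 8 of the 32 genes (25%) against 5.12% of the 17370 table genes with a position. The neighbours Tpi1 and Gapdh were lowest in skin cells, where Eno2 was highest. Being lowest in skin cells was common to 25 of the 32 genes as FPKM and to 18 after median-of-ratios scaling, ties counted.

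Lactate dehydrogenase had the highest FPKM of any step in skin cells, in liver MCPs and in the later limb MCPs. Ldha, the form that favours making lactate, stood at 254 FPKM in the macrophage-labelled library, and at 566 in liver EMPs, 606 in liver MCPs, 487 in limb MCPs at E11.5, 1054 in limb MCPs at E14.5 and 440 in skin cells. Its rank among all genes was 76 in the macrophage-labelled library, and 22 in liver EMPs, 21 in liver MCPs, 28 in limb MCPs at E11.5, 4 in limb MCPs at E14.5 and 16 in skin cells. Ldha therefore kept a high rank in skin cells, where Aldoa ranked 453, Gapdh 537 and Pkm 888. Ldhb, the form that favours lactate use, stood at 15.4 FPKM in the macrophage-labelled library, and at 11.1 in liver EMPs, 2.46 in liver MCPs, 1.16 in limb MCPs at E11.5, 1.88 in limb MCPs at E14.5 and at a listed 0 in skin cells. Its share of lactate dehydrogenase FPKM was 5.71% in the macrophage-labelled library, and 1.91% in liver EMPs, 0.404% in liver MCPs, 0.238% in limb MCPs at E11.5 and 0.178% in limb MCPs at E14.5. The libraries with the highest Ldhb were again those with the highest summed neutrophil markers, and the part of these markers was not tested.

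Within a library, the balance of Ldha against the rest of the pathway can be read without any scaling. Ldha took 8.77% of the summed FPKM of the 32 genes in the macrophage-labelled library, and 15.9% in liver EMPs, 31.95% in liver MCPs, 20.9% in limb MCPs at E11.5, 34.5% in limb MCPs at E14.5 and 69.1% in skin cells. Gapdh took 39.8% in the macrophage-labelled library, and 36.03% in liver EMPs, 23.5% in liver MCPs, 32.1% in limb MCPs at E11.5, 29.7% in limb MCPs at E14.5 and 3.51% in skin cells. The ratio of Ldha to Gapdh was below 1 in the macrophage-labelled library (0.220), liver EMPs (0.441) and limb MCPs at E11.5 (0.651). It was above 1 in liver MCPs (1.36), in limb MCPs of the later age (1.16) and in skin cells (19.7). The ratio of Ldha to Pkm ran from 1.52 in the macrophage-labelled library to 31.7 in skin cells. These shares describe transcripts, and both Ldha and Gapdh have near-identical copies.

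**Figure D3:**
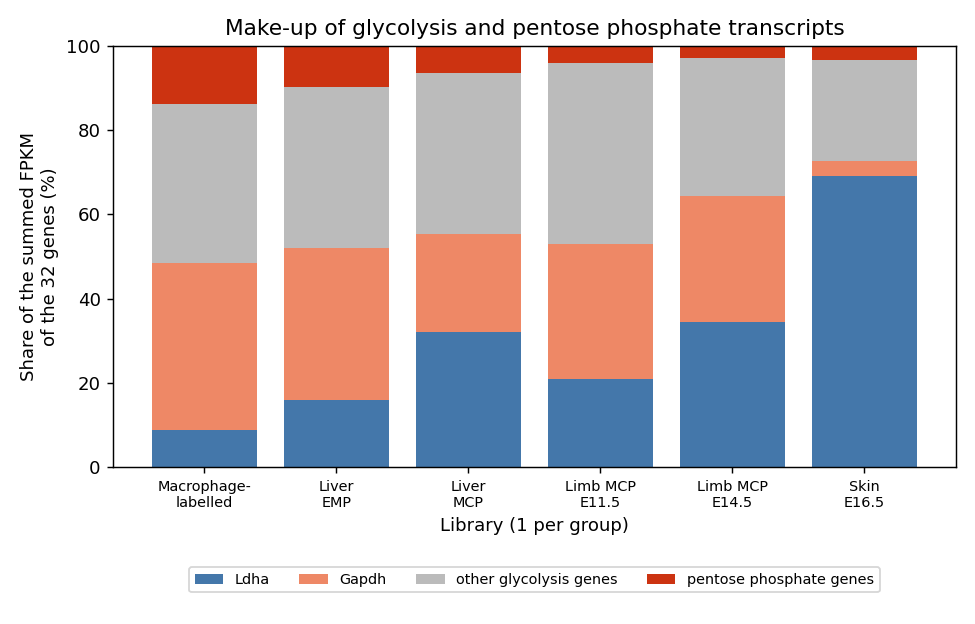
Share of the summed FPKM of the 32 genes (vertical axis, %) taken by Ldha, Gapdh, the 5 pentose phosphate genes and the remaining glycolysis genes in each library (horizontal axis, 1 bar per library). The Ldha block fills 69.1% of the skin bar and 8.77% of the macrophage-labelled bar, and the pentose phosphate block is tallest in the macrophage-labelled bar (13.7%).

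The stacked shares place the largest Ldha block beside the smallest Gapdh block, in skin cells. The promoter windows of the lactate dehydrogenases are shown because Ldha led this step in all 6 libraries and Ldhb had at most 5.71% of it. They are RefSeq windows of GRCm38.p6, chr7:46845554-46845853 on the plus strand for Ldha and chr6:142507908-142508207 on the minus strand for Ldhb, with ACGTG and its reverse complement CACGT in capitals.

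Ldha: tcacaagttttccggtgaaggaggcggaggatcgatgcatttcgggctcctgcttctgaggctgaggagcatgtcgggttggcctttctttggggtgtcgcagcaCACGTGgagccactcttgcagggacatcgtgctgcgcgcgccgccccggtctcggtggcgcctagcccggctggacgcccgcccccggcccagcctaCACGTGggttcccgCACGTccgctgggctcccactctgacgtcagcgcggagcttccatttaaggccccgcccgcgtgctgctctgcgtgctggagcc

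Ldhb: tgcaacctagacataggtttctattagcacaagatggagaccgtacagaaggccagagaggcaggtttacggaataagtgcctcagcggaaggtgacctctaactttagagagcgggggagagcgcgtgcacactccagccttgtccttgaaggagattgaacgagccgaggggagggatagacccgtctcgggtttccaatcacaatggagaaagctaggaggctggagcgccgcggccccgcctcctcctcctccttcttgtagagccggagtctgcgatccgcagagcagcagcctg

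The Ldha window held 5 matches, counting both strands, of which 4 lay in the 2 copies of CACGTG, a palindrome that holds ACGTG on either strand and is also the E-box letter string. A further Ldha start had a window of its own with no match. The Ldhb window held none. Of the 45 windows of the genes described here 19 held the string (42.2%), those of 16 of 31 genes, against 6447 of 32851 windows overall (19.6%). AGATAA, a letter string of GATA factor sites, lay in 4 of the 45 windows (8.89%), against 11.2% of all windows. Such matches are descriptions of letters and do not show binding.

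Lactate leaves the cell through monocarboxylate transporters. Slc16a3, the exporter MCT4 of highly glycolytic cells, stood at 3.59 FPKM in the macrophage-labelled library, and at 6.41 in liver EMPs, 3.08 in liver MCPs, 5.63 in limb MCPs at E11.5, 3.54 in limb MCPs at E14.5 and at a listed 0 in skin cells. Slc16a1, the carrier MCT1 that takes lactate in or out, stood at 1.19 FPKM in the macrophage-labelled library, and at 1.95 in liver EMPs, 1.18 in liver MCPs, 1.08 in limb MCPs at E11.5, 5.12 in limb MCPs at E14.5 and 1.51 in skin cells. Slc16a3 led in 4 libraries with 72.3% to 83.9% of the pair. In limb MCPs at E14.5 the lead was with Slc16a1, at 59.1% and 1.45-fold above Slc16a3 (1.14 to 1.84). Connective tissue markers, all 8 in the table, summed to 69.4 FPKM in that library with none at 0, against 1.01 FPKM in limb MCPs at E11.5, and their part in the level of Slc16a1 was not tested. In skin cells Slc16a1 was the higher of the listed pair. With Slc16a7, a related carrier outside the list at 1.59 FPKM in skin cells, the share of Slc16a1 was 48.7%, so that no order is drawn there. Pdk1, the kinase that holds pyruvate back from mitochondria, was low throughout, at 1.55 FPKM in the macrophage-labelled library, and at 2.03 in liver EMPs, 0.83 in liver MCPs, 0.58 in limb MCPs at E11.5, 0.37 in limb MCPs at E14.5 and 0.28 in skin cells.

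Apart from Taldo1, the listed pentose phosphate genes had their 2 highest levels in the macrophage-labelled and EMP libraries. G6pdx, whose enzyme opens the pathway and makes NADPH, stood at 204 FPKM in the macrophage-labelled library, and at 127 in liver EMPs, 36.4 in liver MCPs, 27.9 in limb MCPs at E11.5, 21.7 in limb MCPs at E14.5 and 7.15 in skin cells. Pgd, the second NADPH-making enzyme, stood at 112 FPKM in the macrophage-labelled library, and at 124 in liver EMPs, 27.3 in liver MCPs, 25.5 in limb MCPs at E11.5, 31.5 in limb MCPs at E14.5 and 9.15 in skin cells. The sum of both stood at 315 FPKM in the macrophage-labelled library and 252 FPKM in liver EMPs, above the 16.3 to 63.7 FPKM of the other 4 libraries. Pgls, a further gene of the oxidative arm outside the 32, had another order. It was highest in limb MCPs at E11.5, at 19.3 FPKM, against 14.6 in the macrophage-labelled library and 17.8 in liver EMPs. Its level was 7.64 FPKM in liver MCPs, 9.53 in limb MCPs at E14.5 and 0.21 in skin cells. Tkt, the transketolase of the non-oxidative arm, stood at 47.0 FPKM in the macrophage-labelled library, and at 64.9 in liver EMPs, 28.7 in liver MCPs, 21.5 in limb MCPs at E11.5, 20.4 in limb MCPs at E14.5 and 0.64 in skin cells. Taldo1, the transaldolase of the same arm, lay between 15.8 and 20.4 FPKM in the 3 liver libraries and between 1.48 and 9.25 FPKM in the limb and skin libraries. Rpia, which interconverts the pentose phosphates, was highest in the macrophage-labelled library at 19.3 FPKM and lowest in skin cells at 3.17 FPKM. After median-of-ratios scaling its lowest value was in the later limb MCPs, at 5.57 against 6.03 in skin cells.

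**Figure D4:**
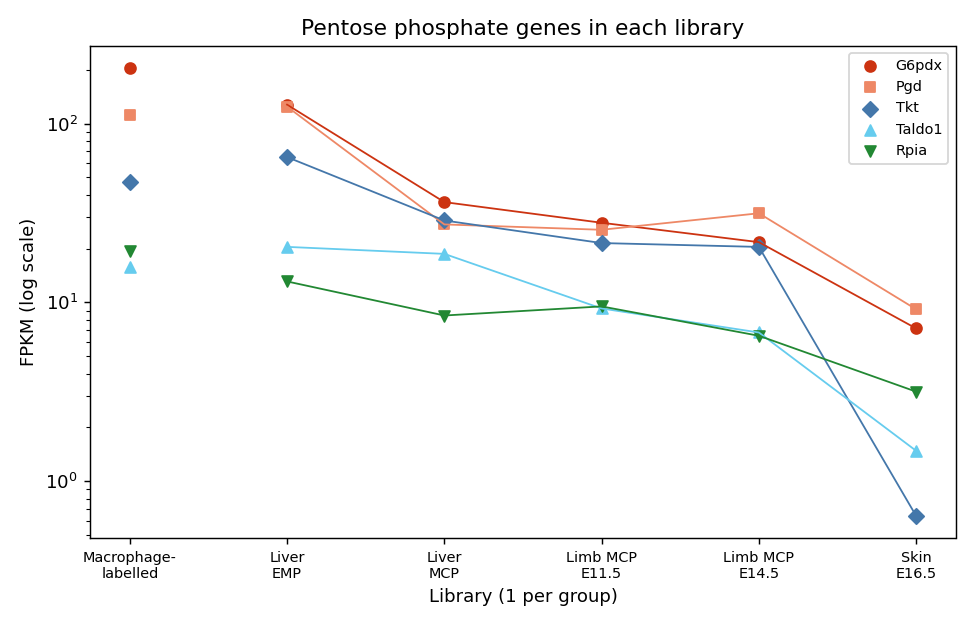
FPKM on a log scale (vertical axis) of the 5 pentose phosphate genes in each library (horizontal axis), with 1 point per gene and library and lines along the series from EMPs to skin cells. G6pdx lies lower in liver MCPs (36.4 FPKM) than in EMPs (127 FPKM), and Tkt lies lower in skin cells (0.64 FPKM) than in the later limb MCPs (20.4 FPKM).

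The plot of the 5 genes shows that the listed genes of the 2 arms did not move as a unit. The sum of G6pdx and Pgd over the sum of Tkt, Taldo1 and Rpia was 3.84 in the macrophage-labelled library, and 2.56 in liver EMPs, 1.14 in liver MCPs, 1.33 in limb MCPs at E11.5, 1.58 in limb MCPs at E14.5 and 3.08 in skin cells. At the branch point, the ratio of G6pdx to Gpi1 was 1.44 in the macrophage-labelled library, and 0.788 in liver EMPs, 0.615 in liver MCPs, 0.371 in limb MCPs at E11.5, 0.296 in limb MCPs at E14.5 and 0.761 in skin cells. G6pdx therefore exceeded Gpi1 only in the macrophage-labelled library. As with Hk3, the libraries high in G6pdx and Pgd were those with the highest summed neutrophil markers, though not of the same make-up. The macrophage-labelled library was also high in eosinophil markers (10030 FPKM, against 270 in liver EMPs). The part of these markers was not tested.

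Pairs of libraries were then compared gene by gene on the log2(FPKM + 1) scale. Genes that reached 10 FPKM in at least 1 library of a pair passed the filter, and among them a difference of 1 or more, a 2-fold change, was called. A called gene can thus have passed through its higher library alone. The same rule over all genes gives the background. Several pairs share a library, so their values are not independent of each other.

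Liver MCPs had less transcript of Gapdh, Pgam1 and Pkm of lower glycolysis, and of G6pdx, Pgd and Tkt among the 5 pentose phosphate genes, than liver EMPs, while Slc2a3 was higher. Of 21 genes past the filter 10 were lower, beside 15.9% of 3369 genes, and 1 was higher, beside 8.52%. The lower genes were Hk2, Gpi1, Pfkfb3, Gapdh, Pgam1, Pkm, Ldhb, G6pdx, Pgd and Tkt. Of these, Hk2, Pfkfb3 and Ldhb reached 10 FPKM only in EMPs, and the higher gene, Slc2a3, did so only in liver MCPs. Among the genes past the filter Pgd showed the largest fall, to 27.3 FPKM in liver MCPs against 124 FPKM in EMPs (−2.15). Hk3, which did not reach the filter, differed more, at 0.37 FPKM in liver MCPs and 9.38 FPKM in EMPs (−2.92, and −2.71 after median-of-ratios scaling). Gapdh was 2.89-fold lower, Pkm 2.89-fold lower and G6pdx 3.50-fold lower. Slc2a3 was 3.80-fold higher in liver MCPs (1.81), and Ldha differed by 0.10. Not called were Tpi1 (−0.61), Pgk1 (−0.82), Eno1 (−0.54), Rpia (−0.58) and Taldo1 (−0.12). Eno1 summed with Eno1b did pass 2-fold (−1.06, and −1.02 after median-of-ratios scaling), at 167 FPKM in liver MCPs and 350.4 FPKM in EMPs. The median difference of the 21 genes was −0.90, against −0.18 over all genes past the filter. Median-of-ratios scaling gave 9 lower genes, beside 14.2% of all genes, and 1 higher, beside 8.93%, with a median of −0.85 and with Hk2 at −0.95 short of the call. Neutrophil markers summed to 1051 FPKM in liver MCPs and 10370 FPKM in EMPs, erythroid markers to 309.7 FPKM in liver MCPs and 60.3 FPKM in EMPs, and their part in these differences was not tested.

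Between the macrophage-labelled library and liver EMPs, the share of listed genes called was near or below that of all genes. Of 21 genes 1 was higher, Slc2a3, at 18.8 FPKM in the macrophage-labelled library against 8.15 FPKM in EMPs (1.11), beside 5.85% of 3179 genes. Lower were 2 genes, Pfkl (−1.43) and Ldha (−1.15), beside 10.5%. Slc2a3 and Pfkl reached 10 FPKM only in the library where they were higher. After median-of-ratios scaling 1 gene was higher, beside 8.4%, and 1 lower, beside 5.13%, since Ldha stood at −0.88 and was not called. The median difference was −0.19, against −0.29 over all genes, and turned to 0.08, against −0.02, with that scaling, so no common direction is drawn. G6pdx differed by 0.67 and Hk3 by 0.67, below the call. Eno1 alone differed by −0.18 and summed with Eno1b by −1.05, which was −0.78 after scaling. Eosinophil markers summed to 10030 FPKM in the macrophage-labelled library and 270 FPKM in EMPs, and their part in these differences was not tested.

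Against the macrophage-labelled library, liver MCPs had less transcript of Hk3, G6pdx, Ldhb and Pgd and more of Ldha and Hk1. Of 21 genes 9 were lower, beside 15.7% of 3254 genes, and 2 higher, beside 17.9%. Among those called, Hk3, Ldhb, Hk2, Rpia and Hk1 reached 10 FPKM only in the library where they were higher. Hk3 stood at 0.37 FPKM in liver MCPs and 15.5 FPKM in the macrophage-labelled library (−3.59). G6pdx was 5.60-fold lower (−2.45), Ldhb 6.26-fold lower (−2.25) and Pgd 4.09-fold lower (−1.99) in liver MCPs. Hk2 (−1.19), Gpi1 (−1.24), Gapdh (−1.37), Pkm (−1.09) and Rpia (−1.11) were the other lower genes. Hk1 was 2.94-fold higher (1.36) and Ldha 2.38-fold higher (1.25) in liver MCPs. Median-of-ratios scaling gave 10 lower genes, with Pgk1 added (−1.11), beside 19.6% of all genes, and 2 higher, beside 12.5%. The median difference was −0.69, against 0.15 over all genes. Neutrophil markers were lower too, at 1051 FPKM in liver MCPs and 8106 FPKM in the macrophage-labelled library, with all 10 of them called lower. So were eosinophil markers, at 90.8 FPKM against 10030, and macrophage markers, at 22.1 FPKM against 118. Erythroid markers, at 309.7 FPKM against 27.5, mast cell markers, at 374 against 66.2, and megakaryocyte markers, at 28.1 against 5.99, were higher. The part of these markers in the differences was not tested.

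**Figure D5:**
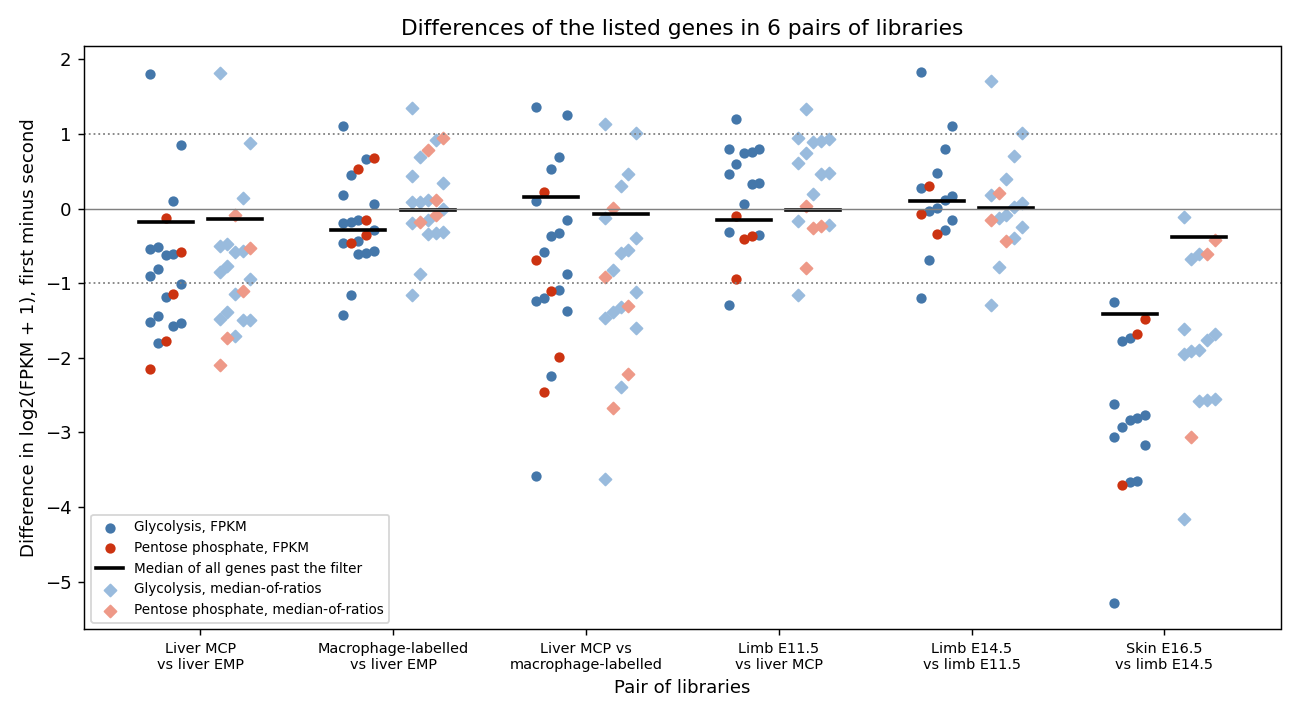
Differences in log2(FPKM + 1), first library minus second, of the listed genes past the filter in 6 pairs of libraries, as deposited (circles) and after median-of-ratios scaling (diamonds), with glycolysis genes in blue and pentose phosphate genes in red. Black bars are medians over all genes past the filter and dotted lines mark 2-fold; all 16 circles of the skin pair lie below the lower line, and the lowest is Gapdh at −5.29.

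The plot of differences sets each pair on both scales. Between limb and liver MCPs at E11.5, the listed genes were called no more often than all genes, while their median lay above that of all genes. Of 17 genes 1 was higher, Slc2a3 at 72.3 FPKM in the limb against 31.0 FPKM in the liver (1.20), beside 8% of 3136 genes. Lower was 1 gene, Hk1 at 4.27 FPKM in the limb against 12.0 FPKM in the liver (−1.30), beside 14.1%. The largest difference below the call was that of Taldo1, at 9.25 FPKM in the limb and 18.7 FPKM in the liver (−0.94). On the other side, Slc2a1 (0.80), Eno1 (0.80), Pgk1 (0.76), Gapdh (0.75) and Tpi1 (0.60) were higher in value in the limb. For enolase the side turned with Eno1b added, the summed value differing by −0.41. Median-of-ratios scaling called the same 2 genes, beside 10% higher and 10.2% lower over all genes. The median was 0.33, against −0.16 over all genes, with 10 of the 17 genes above 0. After scaling it was 0.47, against −0.02, with 11 genes above 0. Erythroid markers summed to 48.9 FPKM in the limb and 309.7 FPKM in the liver, and their part in these differences was not tested.

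In the limb, the later MCPs had more Hk1 and Ldha and less Slc2a3. Of 16 genes 2 were higher at E14.5, beside 8.42% of 2970 genes, and 1 was lower, beside 6.23%. Hk1 stood at 17.7 FPKM at E14.5 against 4.27 FPKM at E11.5, 4.14-fold higher (1.82). Ldha stood at 1054 FPKM at E14.5 against 487 FPKM at E11.5, 2.16-fold higher (1.11). Slc2a3 was 2.34-fold lower at E14.5 (−1.20). Median-of-ratios scaling called the same 3 genes, beside 7% higher and 6.84% lower over all genes. Hk2, which did not reach the filter, stood at 2.13 FPKM at E14.5 and 7.83 FPKM at E11.5, the opposite side from Hk1. The median was 0.07, against 0.10 over all genes, and the remaining genes that passed lay between −0.69 (Eno1) and 0.79 (Pkm). Eno1 summed with Eno1b differed by 0.45, the opposite sign. Connective tissue markers summed to 69.4 FPKM at E14.5 and 1.01 FPKM at E11.5. Neutrophil markers summed to 2.01 FPKM at E14.5 and 487 FPKM at E11.5, and eosinophil markers to 2.60 FPKM at E14.5 and 97.4 FPKM at E11.5. The part of these markers in the differences was not tested.

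Skin cells at E16.5 had lower values than limb MCPs at E14.5 for each of the 16 genes past the filter, and this pair differs in tissue and age at the same time. All 16 were called lower, beside 62.7% of 2759 genes, and 0 higher, beside 5.65%. Of the 16, only 7 reached 10 FPKM in skin cells as well. The falls were of very unequal size. Gapdh was 40.7-fold lower in skin cells (−5.29), Tkt 31.9-fold (−3.71), Pfkl 22.6-fold (−3.17), Tpi1 14.05-fold (−3.65) and Pkm 13.6-fold (−3.67). Ldha was 2.40-fold lower (−1.26), the smallest fall. After median-of-ratios scaling 11 genes were lower, beside 33.1% of all genes, and 0 higher, beside 17.4%. Slc2a1 (−0.67), Pgam1 (−0.61), Ldha (−0.11), G6pdx (−0.43) and Pgd (−0.60) were then not called. Gapdh (−4.16) and Tkt (−3.06) stayed far below on that scale too. The median was −2.83, against −1.42 over all genes, and −1.83 against −0.38 after scaling. Among genes that did not reach the filter, Eno2 was higher in value in skin cells, by 0.66 as deposited and 1.69 after scaling.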

How the data were processed

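The authors' deposited values are FPKM, in 1 table for the 6 libraries. Per the submitters' processing notes the tools were Bowtie2 and RSEM and the genome mm10 (GRCm38), with tool versions not given in the sources used here. Total RNA came from TRIzol extraction, per the labels' protocols, and was sequenced on Illumina HiSeq. Of 17913 rows, 4 with a repeated name were dropped, and each of the 6 columns matched a sample label. FPKM are no counts, and a single library per group leaves no error, so no count model was fitted and no p-value computed.

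Differences were taken on the log2(FPKM + 1) scale and called from 1 upwards, given 10 FPKM in at least 1 of the libraries. Size factors were median-of-ratios over 4559 genes above 1 FPKM throughout. Fold values are ratios of FPKM without the pseudocount. Isoform shares are percentages of the summed FPKM of the listed genes of a step. The 32 genes, the 6 further pathway lists and the 10 marker lists were chosen with earlier results of these data known. All 32 genes are named. From each pathway list, the 2 genes with the highest mean FPKM are named, with those that differed 4-fold in a pair. Named beyond this rule are Pgls, Dlat, Dld and Pdhx, and Pfkfb1, Pfkfb2 and Slc16a7 of the wider isoform families.

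Depth was estimated after the values had been looked at, as the library total that brings the FPKM of 1409 genes with a single transcript (600 to 2500 bases) closest to whole fragments. Then 71.7% to 76.3% of values lay within 0.2 of a whole fragment, against 40% by chance. The depth search and the call rule were tested on simulated data. Intervals of isoform ratios are exact (Clopper-Pearson, 95%). Positions, lengths and copies came from GENCODE M21 (blastn 2.17.0), promoter windows from RefSeq. Python 3.11.15, numpy 2.4.6, pandas 2.3.3, scipy 1.17.1 and matplotlib 3.10.9 were used. Other pseudocounts (0.1 and 5), other filters (none, or 30 FPKM), other scalings and wider isoform families were tried.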

Additional observations from a re-analysis of the deposited data

How the results depend on the processing

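No paired analysis was possible because each group has 1 library. Without replicates the spread between samples of a group is unknown, and depth limits the low genes, such as Pfkl and Hk2 in skin cells. For liver MCPs against EMPs the count of lower genes lay between 7 and 11 under the settings tried; without the expression filter 2 genes were higher, and the median moved to −0.74 with a pseudocount of 5, −0.73 without the filter and −0.76 with equal sums. For the macrophage-labelled library against EMPs, 0 genes were higher with a pseudocount of 5 or a minimum of 30 FPKM, and 1 was lower with that minimum or with size factors. Its median was −0.30 without the filter and turned to 0.08 with size factors. For liver MCPs against the macrophage-labelled library, 1 gene was higher with a pseudocount of 5 or a minimum of 30 FPKM and 5 without the filter, 5 were lower with that minimum, and the median was −0.35 without the filter and −0.92 with size factors. For limb against liver MCPs, 4 genes were higher without the filter, 2 were lower with a pseudocount of 0.1 or without the filter, and 0 were lower with a pseudocount of 5 or a minimum of 30 FPKM. The median there was 0.11 without the filter, 0.54 with the higher minimum, 0.47 with size factors and 0.46 with equal sums. For the limb pair, E14.5 against E11.5, 1 gene was higher with a minimum of 30 FPKM and 3 were lower without the filter. The median turned to −0.04 without the filter, −0.03 with size factors and −0.02 with equal sums, so it has no direction. For skin cells against limb MCPs the median kept its sign, at −3.04 and −2.07 with pseudocounts of 0.1 and 5, −1.59 without the filter, −1.83 with size factors and −2.12 with equal sums. Of the isoform shares, 2 changed their leader, both in skin cells. Eno2 held 29.3% once Eno1b was summed with Eno1, an alternative chosen after seeing the data, and Slc16a1 held 48.7% once Slc16a7 was added. Adding 1 to every FPKM changed no leader. The cause of these changes was not tested beyond what each setting itself does.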

Other observations

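Genes around the pathway, outside the 32, were read from 6 further lists. Among other glycolysis genes, Bsg, the chaperone of the monocarboxylate transporters, stood at 112 FPKM in the macrophage-labelled library, and at 143 in liver EMPs, 114.6 in liver MCPs, 109 in limb MCPs at E11.5, 98.9 in limb MCPs at E14.5 and 31.0 in skin cells. Adpgk, a hexokinase that uses ADP, stood at 5.60 FPKM in liver MCPs against 37.3 FPKM in the macrophage-labelled library. Among genes that turn ribose phosphate into nucleotide precursors, Prps1 was highest in liver MCPs at 24.97 FPKM, and Prps2 lay between 9.92 and 15.6 FPKM outside skin cells. Of the pyruvate dehydrogenase genes, Pdhb and Pdha1 were highest in liver MCPs, at 43.5 FPKM and 39.3 FPKM, as were Dld at 31.1 FPKM and Pdhx at 5.29 FPKM. Dlat, low throughout, was highest in limb MCPs at E14.5, at 1.52 FPKM. In skin cells Pdha1 stood at 3.22 FPKM against 24.6 FPKM in limb MCPs at E14.5 (−2.60 on the log2(FPKM + 1) scale, and −1.63 after median-of-ratios scaling). In liver MCPs against EMPs, 1 of 2 other glycolysis genes past the filter was lower at 2-fold, 1 of 5 other pentose phosphate genes was lower, and 0 of 3 genes of pyruvate entry were called, beside 15.9% lower and 8.52% higher of all genes. In skin cells against the later limb MCPs, 1 of 1, 2 of 2 and 2 of 3 genes of the same lists were lower, beside 62.7% of all genes. After scaling 1 of these 6 genes, Pdha1, was lower, beside 33.1%.

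Hypoxia response genes did not share 1 course. Ero1l, an oxidase of the endoplasmic reticulum that hypoxia induces, stood at 75.4 FPKM in the macrophage-labelled library, and at 73.2 in liver EMPs, 79.4 in liver MCPs, 121 in limb MCPs at E11.5, 148 in limb MCPs at E14.5 and 180 in skin cells. Hif1a, the oxygen-sensitive transcription factor, stood at 4.15 FPKM in the macrophage-labelled library, and at 5.60 in liver EMPs, 8.07 in liver MCPs, 9.98 in limb MCPs at E11.5, 13.1 in limb MCPs at E14.5 and 17.4 in skin cells. Along the series from EMPs to skin cells each value of both exceeded the one before it. Vegfa, a growth factor of vessels, went the other way at the first step, with 3.20 FPKM in liver MCPs against 21.5 FPKM in EMPs. Egln3, an oxygen sensor, stood at 1.93 FPKM in the macrophage-labelled library against 11.53 FPKM in EMPs. Of the 20 genes of this list, 3 were called lower and 0 higher at 2-fold in liver MCPs against EMPs, with 5 past the filter, beside 15.9% lower and 8.52% higher of all genes. For skin cells and the later limb MCPs the list had 3 genes past the filter, with 0 called in either direction as deposited. After scaling 2 of the 3 were higher in skin cells, Hif1a (1.48) and Ero1l (1.42), beside 17.4% of all genes.

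Glucose release and storage genes are given last. In liver MCPs against EMPs, 1 of 2 glucose release and glycerol genes past the filter was lower, and of 3 glycogen genes 1 was higher and 1 lower, beside the same shares of all genes (15.9% lower, 8.52% higher). G6pc3, the phosphatase that releases glucose in myeloid cells, stood at 1.79 FPKM in skin cells against 17.0 FPKM in limb MCPs at E14.5 (−2.69, and −1.82 after scaling). Gpd2, of the glycerol phosphate shuttle, lay between 6.08 and 13.4 FPKM outside skin cells. Gyg, which primes glycogen, kept 41.3 FPKM in skin cells against 29.5 FPKM in limb MCPs at E14.5 (0.47, and 1.60 after scaling). Pygl, a glycogen phosphorylase, was highest in the macrophage-labelled library at 38.6 FPKM. Pgm1, which links glycogen to glycolysis, stood at 16.6 FPKM in liver MCPs against 2.19 FPKM in the macrophage-labelled library. Pygb, another phosphorylase, stood at 1.12 FPKM in skin cells against 10.6 FPKM in limb MCPs at E14.5 (−2.45, and −1.69 after scaling).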
